A study of Danio rerio with 54 samples.

Results

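Genes of the zebrafish p53 pathway were followed through development, oxidant exposure and loss of the transcription factor Nfe2. They were the 5 rows of the deposited table, out of 31953 genes, whose gene name was mdm2 (ENSDARG00000033443), ccng1 (ENSDARG00000076667), cdkn1a (ENSDARG00000076554), gadd45aa (ENSDARG00000043581) or tp53inp1 (ENSDARG00000028017). Wildtype embryos of the AB strain were compared with a germline nfe2 knockout, made by injecting TAL effector nucleases into AB/TL hybrid embryos and carrying a frameshift founder deletion in exon 3. Embryos were given water, 20 µM of the redox-cycling herbicide diquat or 1 mM of the organic peroxide tert-butyl hydroperoxide (tBOOH), for 4 h starting at 2, 48 or 96 h post fertilization (hpf). They then recovered for 4 h before freezing, according to the labels' treatment protocol, so "2 hpf" below names the start of dosing. The sample descriptions instead give 2, 48 or 96 hpf as the time the RNA was sampled. Both cannot hold, since RNA taken after 4 h of dosing is later than the start of dosing. If dosing began at those hours, the RNA was sampled later, and the labels do not settle the exact hour. Each of the 18 groups of stage, genotype and treatment held 3 pools of 30 whole embryos, 54 libraries in all.

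The p53 pathway answers DNA damage and other stress by switching on target genes. Its targets include mdm2, which encodes a ubiquitin ligase that restrains the pathway and so closes a feedback loop, and cdkn1a, which encodes the cyclin-dependent kinase inhibitor p21. Other targets are ccng1, encoding cyclin G1, a partner of phosphatase 2A that acts on Mdm2, gadd45aa, one of the Gadd45 family of growth arrest and repair genes, and tp53inp1, encoding a stress protein that promotes autophagy and cell death. These roles come mostly from mammalian cells.

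The values were normalised read counts, and the libraries held 0.527 to 1.04 M recovered reads, which limits what can be seen in the rarer genes. The strand on which reads were counted was not tested, so a low count need not mean little mRNA. Rare below refers to counted reads. Only ccng1 reached 10 normalised counts in 54 of 54 libraries. The gene mdm2 reached that level in 44 libraries, tp53inp1 in 21, cdkn1a in 2 and gadd45aa in 0. A gene was tested in a series when at least 3 of its libraries reached 10, so 2 members (mdm2 and ccng1) were tested at 2 hpf and 3 (with tp53inp1) at 48 and 96 hpf. A gene is called below when its Benjamini-Hochberg adjusted p, taken over all genes tested, was under 0.05. Groups of 3 libraries can fail to overlap without a real difference, and the share of all genes that did so was not counted. A lack of overlap without a call is therefore a description only. Nothing in the labels says whether pools came from separate clutches, so p-values measure the spread between pools. In whole embryos, fewer cells of a type and less RNA per cell cannot be told apart.

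The stages carried their own markers: 8 gastrula genes summed to 85.2 to 179 normalised counts per library at 2 hpf and to at most 15.5 later, and 8 skeletal muscle genes summed to at least 5903 from 48 hpf on and to at most 85.9 at 2 hpf. The nfe2 transcript was measured at 1.60 to 19.9 normalised counts in the wildtype libraries at 2 hpf, at 8.17 to 34.4 in the knockout libraries there, and at no more than 4.39 in any library of the later stages. In water at 2 hpf it did not differ between genotypes beyond the spread between pools (log2 difference 0.56 ± 0.47 SE, adjusted p = 0.383). A frameshift need not lower its transcript, so this level does not check the labels, and the difference in strain background cannot be told apart from the loss of nfe2.

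The levels of the 5 genes had different orders across the 18 groups. The mean of mdm2 was highest in wildtype embryos given tBOOH at 96 hpf, at 36.5 normalised counts, and lowest in knockout embryos in water at 48 hpf, at 10.1. The mean of ccng1 ran from 105 in wildtype water at 2 hpf to 258 in knockout tBOOH at 96 hpf, and all 6 groups of 2 hpf lay below the 12 later groups. The mean of cdkn1a was highest in knockout tBOOH at 96 hpf, at 13.5, with no read in the knockout diquat and knockout tBOOH groups of 2 hpf. For those groups 3 reads over the group would give means of 1.16 and 0.928, the upper limits that a count of 0 allows for counting error only. The mean of gadd45aa ran from 0.558 to 6.43 and that of tp53inp1 from 1.31 to 16.6. Neighbours in these orders seldom stood apart: of 17 steps between neighbouring groups, those larger than the greater SD of the pair numbered 1 for mdm2, 2 for ccng1, 1 for cdkn1a, 0 for gadd45aa and 1 for tp53inp1.

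**Figure D1:**
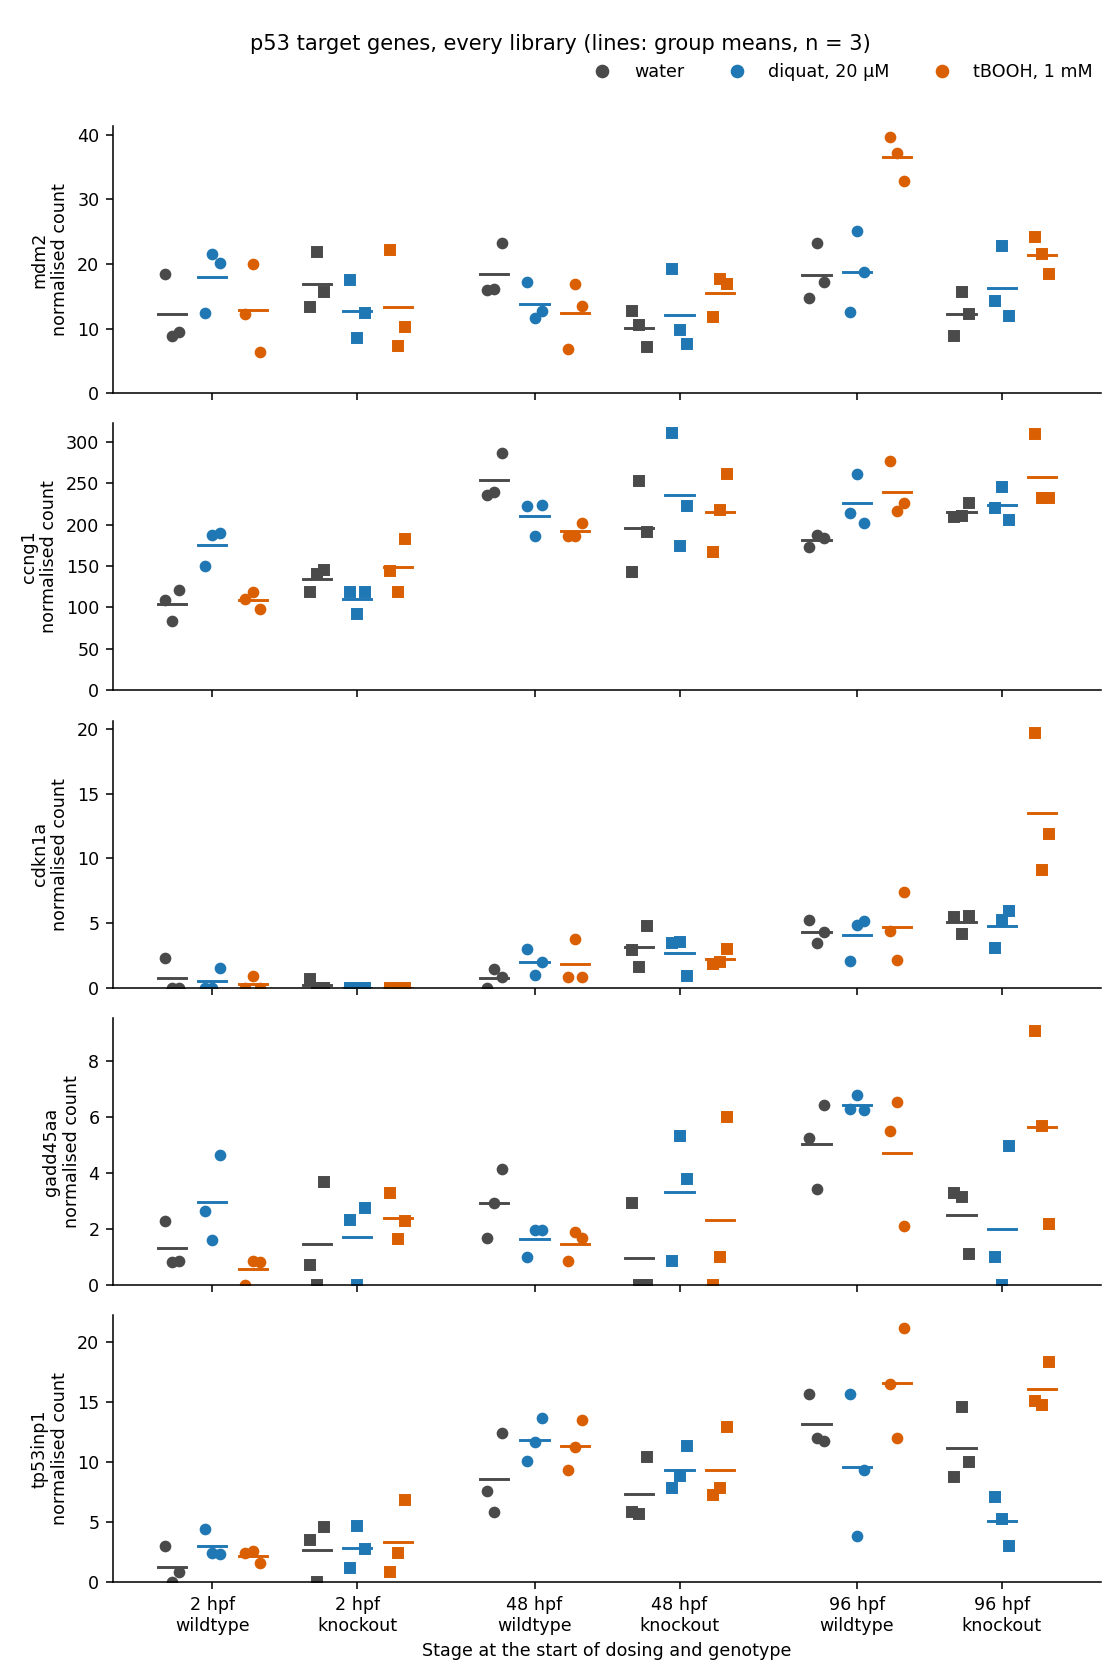
Normalised counts (vertical axes, linear from 0) of the 5 genes in every library, by stage and genotype along the horizontal axis; circles are wildtype, squares knockout, colours the treatment and short lines the group means (n = 3 pools). The wildtype tBOOH libraries at 96 hpf, 32.8 to 39.7, were the highest of the 54 for mdm2, and 1 knockout tBOOH library reached 19.7 for cdkn1a.

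In embryos dosed from 2 hpf, ccng1 rose with diquat in the wildtype. The wildtype water libraries held 110, 83.9 and 121 normalised counts of ccng1. The wildtype diquat libraries held 150, 187 and 190, and every one lay above every water library. The ratio of the means was 1.67, and the log2 change was 0.75 ± 0.18 SE (95% interval 0.38 to 1.11, adjusted p = 0.0318). Of the 2 members tested, 1 was called in this comparison, against 0.964% of all genes. The call was lost without wildtype diquat replicate 2 (adjusted p = 0.173) or 3 (0.179), without wildtype water replicate 1 (0.09) or 2 (0.27), and when no filter was set on low values (0.0763).

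In the knockout, ccng1 was not called with diquat. Its water libraries held 119, 140 and 145 normalised counts and its diquat libraries 119, 92.3 and 118, so the groups overlapped (log2 change -0.30 ± 0.18 SE, adjusted p = 0.374). In that comparison 0 of 2 members were called, against 3.74% of all genes. The difference between genotypes in the diquat response of ccng1 was itself called, at -1.04 ± 0.25 SE on the log2 scale (interval -1.56 to -0.53, adjusted p = 0.035). That made 1 of 2 members, against 0.938% of all genes. It was lost when any 1 of 7 of the 12 libraries was left out, namely wildtype diquat 2 (adjusted p = 0.116) or 3 (0.105), wildtype water 1 (0.0613) or 2 (0.13), knockout diquat 2 (0.0838) or 3 (0.0572) and knockout water 2 (0.0783), and it was lost with no low-value filter (0.0885).

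With tBOOH at the same stage, wildtype ccng1 was measured at 110, 118 and 98.2 normalised counts and overlapped the water libraries (log2 change 0.07 ± 0.18 SE, interval -0.30 to 0.43, adjusted p = 0.892). Neither member was called, 0 of 2, against 2.83% of all genes. Set directly against diquat in the wildtype, ccng1 was lower with tBOOH by -0.68 ± 0.18 SE on the log2 scale (adjusted p = 0.0212), which was 1 of 2 members against 5.73% of all genes. This call was lost without wildtype diquat replicate 2 (adjusted p = 0.0985) or 3 (0.0905), without wildtype tBOOH replicate 2 (0.0557) or 3 (0.13), and with no low-value filter (0.0508). In the knockout the tBOOH libraries held 144, 119 and 183 of ccng1 and overlapped the water libraries, and 0 of 2 members were called. No gene of the whole table was called in that comparison either, 0% by limma, with 477 genes at an unadjusted p under 0.05. tBOOH against diquat in the knockout gave 0 of 2 members against 1.3% of all genes, with ccng1 at 0.42 ± 0.18 SE (adjusted p = 0.179).

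The feedback ligase gene mdm2 was not called at 2 hpf. Its wildtype water libraries held 18.4, 8.87 and 9.50 normalised counts and its wildtype diquat libraries 12.4, 21.6 and 20.1, which overlapped (log2 change 0.56 ± 0.40 SE, interval -0.26 to 1.37, adjusted p = 0.722). In the other comparisons of an oxidant with water at this stage its log2 changes ran from -0.44 to 0.01 with an SE of 0.40, and none was called. The 95% intervals of these changes reached from -1.25 to 0.83. Against diquat, tBOOH stood at -0.54 ± 0.40 SE in the wildtype and -0.03 ± 0.40 in the knockout (adjusted p = 0.477 and 0.974). Between genotypes in water, mdm2 differed by 0.48 ± 0.40 SE and ccng1 by 0.37 ± 0.18 SE (adjusted p = 0.381 and 0.114), 0 of 2 members against 31.3% of all genes. The genotype difference of the tBOOH response also gave 0 of 2, against 0.0128% of all genes.

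The rarer members gave too few reads at 2 hpf for a comparison. For gadd45aa the wildtype diquat libraries held 2.66, 1.60 and 4.64 normalised counts, or 11 reads in all, and the wildtype water libraries 2.30, 0.807 and 0.864, or 5 reads. For tp53inp1 the same groups held 11 and 5 reads, and for cdkn1a 2 and 3. With no low-value filter none of these members was called in any comparison of this stage.

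At 48 hpf the members gave no call. In the wildtype, ccng1 had 236, 239 and 286 normalised counts in water, 222, 186 and 223 with diquat and 187, 186 and 202 with tBOOH, so that both oxidant groups lay below the water group without overlap. The ratios of the means were 0.83 and 0.756, and the log2 changes -0.27 ± 0.22 and -0.40 ± 0.22 SE (adjusted p = 0.959 and 0.709). Of 3 members tested, 0 were called with diquat, where 0.0411% of all genes were called, and 0 with tBOOH, where 0.165% were. In the knockout the water libraries of ccng1 spread from 143 to 252 normalised counts and overlapped both oxidant groups. There 0 of 3 members were called with diquat, against 0% of all genes by limma (319 at an unadjusted p under 0.05), and 0 of 3 with tBOOH, against 0.195%.

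The knockout libraries of this stage were uneven, with skeletal muscle sums down to 5903 normalised counts, and weighting libraries by their fit changed the result for mdm2. In water, mdm2 had 16.0, 16.1 and 23.2 normalised counts in the wildtype and 12.7, 10.6 and 7.20 in the knockout, with no overlap. The log2 difference was -0.81 ± 0.35 SE (adjusted p = 0.215), and 0 of 3 members were called, against 2.49% of all genes. With library quality weights the difference was -1.21 (adjusted p = 0.00519), and that of ccng1, -0.44, was called too (0.0367). The knockout tBOOH libraries of mdm2 held 11.8, 17.7 and 16.9 and overlapped the water group, for a log2 change of 0.58 ± 0.35 SE (adjusted p = 0.697), or 1.02 with the weights (0.0308). The part of these uneven libraries in the results was not tested.

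The other 48 hpf comparisons gave no call among the 3 members tested. Genotype differences of the diquat response and of the tBOOH response were called for 0 of 3 members and for 0% of all genes each by limma, with 388 and 622 genes at an unadjusted p under 0.05. The difference for mdm2 under tBOOH was 1.18 ± 0.50 SE (interval 0.13 to 2.22, adjusted p = 0.749). tBOOH against diquat gave 0 of 3 members in the wildtype, against 0.0308% of all genes, and 0 of 3 in the knockout, against 0.154%. For tp53inp1 the 4 oxidant changes lay between 0.32 and 0.46 with an SE of 0.34, none called. For cdkn1a, a gene below the filter, the wildtype water libraries held 0, 1.47 and 0.829 normalised counts (2 reads) and the knockout water libraries 2.92, 1.63 and 4.80 (11 reads). Those groups did not overlap, and the unfiltered log2 difference was 1.24 ± 0.57 SE (adjusted p = 0.36).

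At 96 hpf the highest mdm2 values of the series were those of the wildtype given tBOOH. The wildtype water libraries held 14.7, 23.2 and 17.1 normalised counts of mdm2. The wildtype tBOOH libraries held 39.7, 37.1 and 32.8, all above the water libraries, with 101 reads against 57 over the groups. The ratio of the means was 1.99 and the log2 change 0.98 ± 0.30 SE (interval 0.35 to 1.60), which missed the threshold at an adjusted p of 0.106. It passed with library quality weights (adjusted p = 0.0289), with edgeR on recovered reads (0.0326) and when only the compared groups were fitted (0.00584), but not with DESeq2 (0.154), and over all alternatives the adjusted p ran from 0.00584 to 0.383. In this comparison 0 of 3 members were called, against 2.3% of all genes.

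The knockout gave a similar order of mdm2 values. Its water libraries held 8.78, 15.7 and 12.3 normalised counts and its tBOOH libraries 24.2, 21.5 and 18.4, again without overlap (log2 change 0.78 ± 0.30 SE, interval 0.16 to 1.41, adjusted p = 0.129). The difference between the genotypes in this response was -0.19 ± 0.43 SE (interval -1.08 to 0.69, adjusted p = 0.984). Diquat gave a log2 change of 0.01 ± 0.30 SE in the wildtype and 0.37 ± 0.30 in the knockout. In the wildtype, tBOOH against diquat stood at 0.97 ± 0.30 SE for mdm2 (adjusted p = 0.124).

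For cdkn1a, the p21 gene, the highest values lay in the knockout given tBOOH. Those libraries held 19.7, 9.06 and 11.9 normalised counts, against 5.49, 4.18 and 5.58 in knockout water, or 32 reads against 14. The groups did not overlap and the ratio of the means was 2.67. In the wildtype the tBOOH libraries held 4.41, 2.18 and 7.42 and the water libraries 5.24, 3.44 and 4.28, which overlapped. Only 2 of the 18 libraries of this stage reached 10, so cdkn1a was not tested. With no low-value filter its log2 change was 1.20 ± 0.49 SE in the knockout (adjusted p = 0.262) and 0.00 ± 0.49 in the wildtype (adjusted p = 1), and the difference between these responses was 1.21 ± 0.70 (adjusted p = 0.906).

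The cyclin G1 gene was not called at 96 hpf. In the wildtype, ccng1 had 173, 187 and 184 normalised counts in water, 214, 261 and 201 with diquat and 277, 216 and 226 with tBOOH, so both oxidant groups lay above water without overlap. The log2 changes were 0.30 ± 0.17 and 0.39 ± 0.17 SE (adjusted p = 0.977 and 0.325). In the knockout the tBOOH libraries, 309, 232 and 232, lay above the water libraries, 210, 210 and 225 (log2 change 0.25 ± 0.17 SE, adjusted p = 0.447). Those knockout water libraries lay above the wildtype water libraries as well (log2 difference 0.24 ± 0.17 SE, adjusted p = 0.314). For gadd45aa the 18 libraries held 0 to 9.08 normalised counts. Its knockout water libraries, 3.29, 3.13 and 1.12, lay below its wildtype water libraries, 5.24, 3.44 and 6.43, with an unfiltered log2 difference of -0.82 ± 0.62 SE (adjusted p = 0.488).

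For the stress gene tp53inp1, the oxidant groups of the knockout lay apart at 96 hpf. Its knockout diquat libraries held 7.09, 5.25 and 2.98 normalised counts, its water libraries 8.78, 14.6 and 10.04, and its tBOOH libraries 15.1, 14.7 and 18.4. Every diquat library lay below every water library and every tBOOH library above. Neither step from water was called (log2 change -1.02 ± 0.40 SE with diquat, adjusted p = 0.38, and 0.51 ± 0.40 with tBOOH, adjusted p = 0.537), but tBOOH against diquat was, at 1.54 ± 0.40 SE (interval 0.72 to 2.35, adjusted p = 0.0126). This was 1 of 3 members, against 8.18% of all genes. The diquat libraries held 13 reads of tp53inp1 in all and the tBOOH libraries 40. Of the compared libraries only those given tBOOH, where tp53inp1 was high, reached the filter level of 10, so this call is a description only. The call was lost without knockout diquat replicate 3 (adjusted p = 0.0574) or knockout tBOOH replicate 3 (0.0617), with library quality weights (0.0571), with DESeq2 (0.0583) and when only the compared groups were fitted (0.109). In the wildtype, the diquat libraries spread from 3.87 to 15.7 and overlapped both other groups, with tBOOH against diquat at 0.86 ± 0.40 SE (adjusted p = 0.4).

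The remaining counts at 96 hpf were all 0 of the 3 members tested. They were set against 0.245% of all genes for wildtype diquat, 0.315% for knockout diquat, 7.49% for knockout tBOOH and 1.68% for tBOOH against diquat in the wildtype. Knockout against wildtype in water gave 0 of 3 against 23% of all genes, with mdm2 at -0.56 ± 0.30 SE (adjusted p = 0.197). The genotype differences gave 0 of 3 against 0.00874% of all genes for the diquat response and 0.324% for the tBOOH response.

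**Figure D2:**
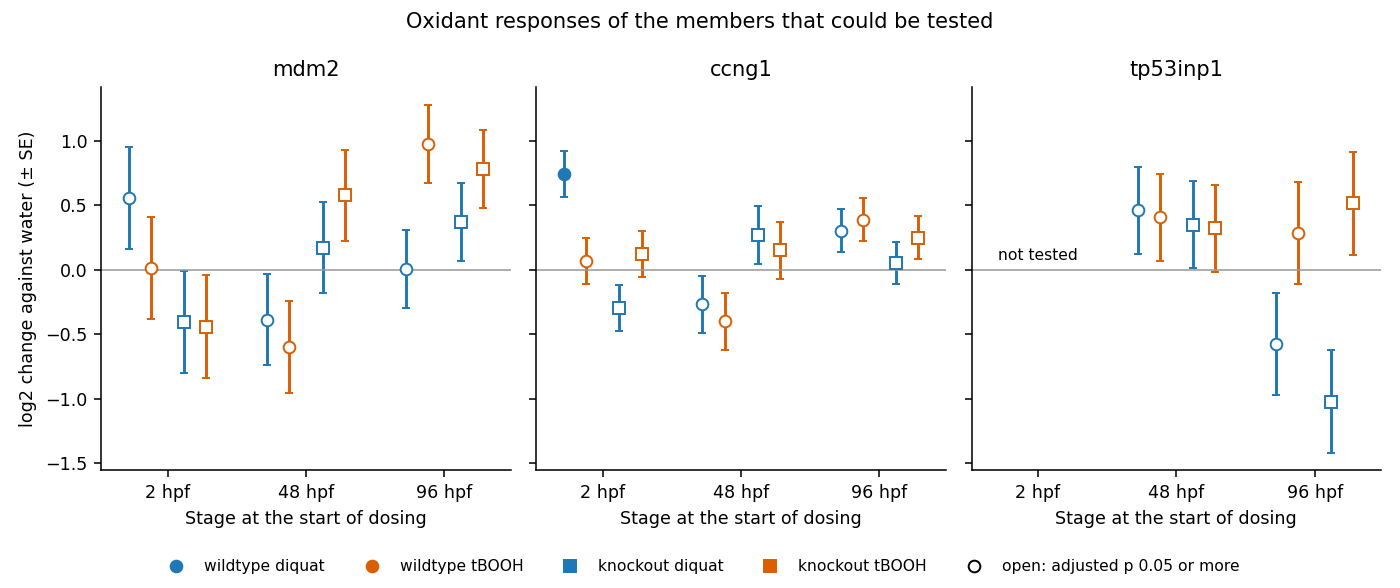
Log2 change against water on the log2(normalised count + 1) scale (vertical axis, ± SE from the fit to the 18 libraries of a stage) for the 3 members that could be tested, by stage of dosing; circles are wildtype, squares knockout, and filled points have an adjusted p under 0.05. Among these points the diquat response of ccng1 in the wildtype at 2 hpf, 0.75, is the 1 filled point, and the tBOOH responses of mdm2 at 96 hpf, 0.98 and 0.78, are open.

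Between 2 and 48 hpf, ccng1 rose in water. In wildtype water, ccng1 rose from a mean of 105 ± 18.96 normalised counts (SD, n = 3) at 2 hpf to 254 ± 28.0 at 48 hpf, a log2 change of 1.28 ± 0.19 SE (adjusted p = 9.22e-08). In the same embryos tp53inp1 went from 1.31 ± 1.58 to 8.62 ± 3.40, a log2 change of 2.24 ± 0.49 SE (adjusted p = 0.000115). These were 2 of 3 members, against 58.4% of all genes. However, tp53inp1 reached 10 normalised counts in 0 of the 18 libraries of 2 hpf and entered this fit only through the later stages, where it was high, so its change is a description and its call supports nothing. The median log2 change of all genes over this step was 0.39, or 0.22 under rescaling by the trimmed mean of M-values (TMM). Relative to that median ccng1 was still higher.

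The knockout took the same step with smaller estimates. Its ccng1 rose by 0.50 ± 0.19 SE (adjusted p = 0.0216). Its tp53inp1 changed by 1.46 ± 0.49 SE (adjusted p = 0.00982), with the same limit from the filter as in the wildtype. Counting it, 2 of 3 members were called against 57.8% of all genes. For ccng1 this rise was close to the median of all genes, 0.41. The call of ccng1 was lost without knockout water replicate 1 of 2 hpf (adjusted p = 0.0977) or replicate 2 of 48 hpf (0.223), and with TMM (0.0652), edgeR (0.0648) or only the compared groups (0.0788). The call of tp53inp1 was lost without replicate 2 of 2 hpf (0.248) or replicate 3 of 48 hpf (0.0603). The difference between the genotypes in this step was not tested.

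From 48 to 96 hpf no member was called, 0 of 3 against 28% of all genes in the wildtype and 0 of 3 against 19.7% in the knockout. Wildtype ccng1 changed by -0.48 ± 0.19 SE (adjusted p = 0.0534), just outside the threshold, and was called under 6 of 8 other settings. The gene mdm2 changed by -0.01 ± 0.37 SE in the wildtype and 0.25 ± 0.37 in the knockout over that interval. With no low-value filter, cdkn1a rose from 48 to 96 hpf in the wildtype (1.67 ± 0.49 SE, adjusted p = 0.0125) and from 2 to 48 hpf in the knockout (1.71 ± 0.49 SE, adjusted p = 0.00517). Its wildtype water mean went from 0.765 ± 0.735 (2 reads) to 4.32 ± 0.901 (13 reads, SD, n = 3). Its knockout water mean went from 0.235 ± 0.406 (1 read) at 2 hpf to 3.12 ± 1.60 (11 reads) at 48 hpf. Both steps start from at most 2 reads in a group of a gene below the filter, so these calls are descriptions only.

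Whether an oxidant response differed between stages was tested over all 54 libraries, by 1 limma F test over all 3 stages, and no member was called. This gave 0 of 3 against 0.333% of all genes for wildtype diquat and 0 of 3 against 0.878% for wildtype tBOOH. In the knockout it gave 0 of 3 against 0.0379% for diquat and 0 of 3 against 1.92% for tBOOH. The wildtype diquat response of ccng1 was 0.75 at 2 hpf, -0.27 at 48 hpf and 0.30 at 96 hpf. The F test over these 3 stages together gave an adjusted p of 0.184, and the step from 2 to 48 hpf was not tested alone. The joint difference was called with library quality weights and when only the compared groups were fitted.

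Other genes of the pathway gave the setting of these changes, counted from a list chosen by role. This list was chosen with earlier results of these data known, so its shares of called genes are descriptions and test nothing. It held 40 tested genes at 2 hpf, 48 at 48 hpf and 56 at 96 hpf. At 96 hpf tBOOH moved several of them: in the knockout 7 rose and 3 fell, 17.9% of the 56 against 7.49% of all genes, with a median log2 change of -0.01 over the list and 0.00 over all genes. In the wildtype 1 rose and 2 fell, 5.36% of the 56 against 2.3% of all genes, with a median of 0.01 over the list and 0.00 over all genes. Of these genes 3 were called in both genotypes, and 0 of 56 had a called difference between genotypes in the response.

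The apoptosis gene casp3b, encoding an executioner caspase, had the smallest p in the knockout. Its knockout water libraries held 3.29, 3.35 and 8.35 normalised counts and its knockout tBOOH libraries 32.4, 35.1 and 45.4, with no overlap (log2 change 2.78 ± 0.35 SE, adjusted p = 1.84e-06). In the wildtype casp3b went from 11.2, 21.4 and 25.1 to 47.7, 52.4 and 76.1 (log2 change 1.60 ± 0.35 SE, adjusted p = 0.00822), a call that was lost without wildtype water replicate 2 (0.101) or wildtype tBOOH replicate 1 (0.0924). Of the 11 apoptosis genes tested, casp3b was the 1 called in each genotype. That was 9.09% of them, against 2.3% of all genes in the wildtype and 7.49% in the knockout. Genes for the apoptosis inducers Puma and Noxa, named after their values were seen, were not called: bbc3 stood at 1.51 ± 0.68 SE in the wildtype and 1.74 ± 0.68 in the knockout (adjusted p = 0.364 and 0.129), and pmaip1 at 1.48 ± 0.68 and 1.94 ± 0.68 (0.382 and 0.0825).

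Among the 11 arrest and growth control genes, 5 were called higher in the knockout with tBOOH and 0 in the wildtype. Of all genes 7.49% were called in the knockout and 2.3% in the wildtype. The difference between the genotypes in this response was called for 0 of the 11. The antiproliferative gene btg2 went from 5.22, 7.68 and 12.3 normalised counts to 40.8, 48.4 and 68.1 in the knockout (log2 change 2.55 ± 0.40 SE, adjusted p = 5.46e-05). In the wildtype it stood at 0.66 ± 0.40 SE (adjusted p = 0.59), and the difference between the genotypes, 1.89 ± 0.57, was not called (adjusted p = 0.24). The stress-induced relatives of gadd45aa also rose in the knockout: gadd45ba by 1.61 ± 0.27 SE (adjusted p = 0.000143) and gadd45ga by 1.49 ± 0.27 (0.00045). Their wildtype changes were 0.21 ± 0.27 and 0.36 ± 0.27 (adjusted p = 0.87 and 0.716), and the differences, 1.395 and 1.13, had adjusted p = 0.158 and 0.425. The 2 others, named after their values were seen, were cdkn1d, a relative of the p21 gene, at 0.93 ± 0.23 SE and the polo-like kinase gene plk2b at 1.70 ± 0.43 SE. Their wildtype changes were 0.58 ± 0.23 and -0.01 ± 0.43 SE, and the genotype difference of plk2b, 1.71 ± 0.61, had an adjusted p of 0.482. The call of plk2b was lost without knockout water replicate 2 (adjusted p = 0.13), with DESeq2 (0.0729) and when only the compared groups were fitted (0.0555), and that of cdkn1d without knockout water replicate 2 (0.0582) or knockout tBOOH replicate 3 (0.0748).

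Of 15 genes of repair, nucleotides and metabolism, 2 that serve DNA synthesis fell in both genotypes with tBOOH at 96 hpf. The share of the 15 called was 13.3% in the wildtype and 20.0% in the knockout, against 2.3% and 7.49% of all genes. The sliding clamp gene pcna went from 46.1, 53.3 and 54.5 normalised counts to 19.8, 21.2 and 40.4 in the wildtype (log2 change -0.96 ± 0.26 SE, adjusted p = 0.0403). In the knockout pcna went from 39.5, 41.3 and 50.1 to 13.6, 15.1 and 19.7 (log2 change -1.39 ± 0.26 SE, adjusted p = 0.000481). One of 2 identifiers named rrm2 (ENSDARG00000020711), a ribonucleotide reductase subunit, fell by 1.85 on the log2 scale in the wildtype (adjusted p = 0.00291) and changed by -1.4993 in the knockout (0.0076). The other (ENSDARG00000078069) stood at -1.20 in the wildtype and -0.02 in the knockout and was called in neither. Reads of such near copies may be divided between identifiers, so their values are less certain. The wildtype call of pcna was lost when any of wildtype water 1 (0.17), 2 (0.153) and 3 (0.0843) or wildtype tBOOH 1 (0.282) and 3 (0.233) was left out, with no low-value filter (0.0657) and with DESeq2 (0.0722). The antioxidant regulator gene sesn1 rose in the knockout by 0.92 ± 0.19 SE (adjusted p = 0.00168) and stood at 0.02 ± 0.19 in the wildtype. Its difference between the genotypes, 0.90 ± 0.27 SE, was not called (adjusted p = 0.241). The third gene to fall in the knockout, named after its values were seen, was tp53bp1, encoding a repair protein, at -0.64 ± 0.17 SE, a call lost without any 1 of 3 libraries (adjusted p up to 0.0885).

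Markers of cycling cells moved with these changes. These 10 genes, none of them on the pathway lists, summed to 307 to 314 normalised counts in wildtype water at 96 hpf and to 161 to 167 with tBOOH. In the knockout they summed to 243 to 251 in water and 123 to 139 with tBOOH. The groups did not overlap, none of the 10 was at 0, and 2 of 10 in the wildtype and 4 of 10 in the knockout were called, all lower. Of all genes 2.3% were called in the wildtype and 7.49% in the knockout. In the knockout, digestive organ markers were called higher for 5 of 9 genes, summing to 100 to 149 in water and 187 to 412 with tBOOH. Red blood cell markers there were called higher for 1 of 4 genes tested and had a median log2 change of -0.54, although their sum went from 253 to 403 in water to 852 to 2214. In the wildtype both sums were lower with tBOOH, without overlap, and 0 of 9 and 0 of 4 genes were called. Digestive organ sums there were 660 to 807 in water and 360 to 506 with tBOOH. Red blood cell sums were 2049 to 2529 in water and 1118 to 1798 with tBOOH. The genotype difference in this tBOOH response was called, higher in the knockout, for 4 of 9 digestive organ and 1 of 4 red blood cell markers. It was called for 0 of 10 cycling-cell markers and for 0.324% of all genes. The part of these cells in the changes of mdm2, cdkn1a and the pathway genes was not tested.

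**Figure D3:**
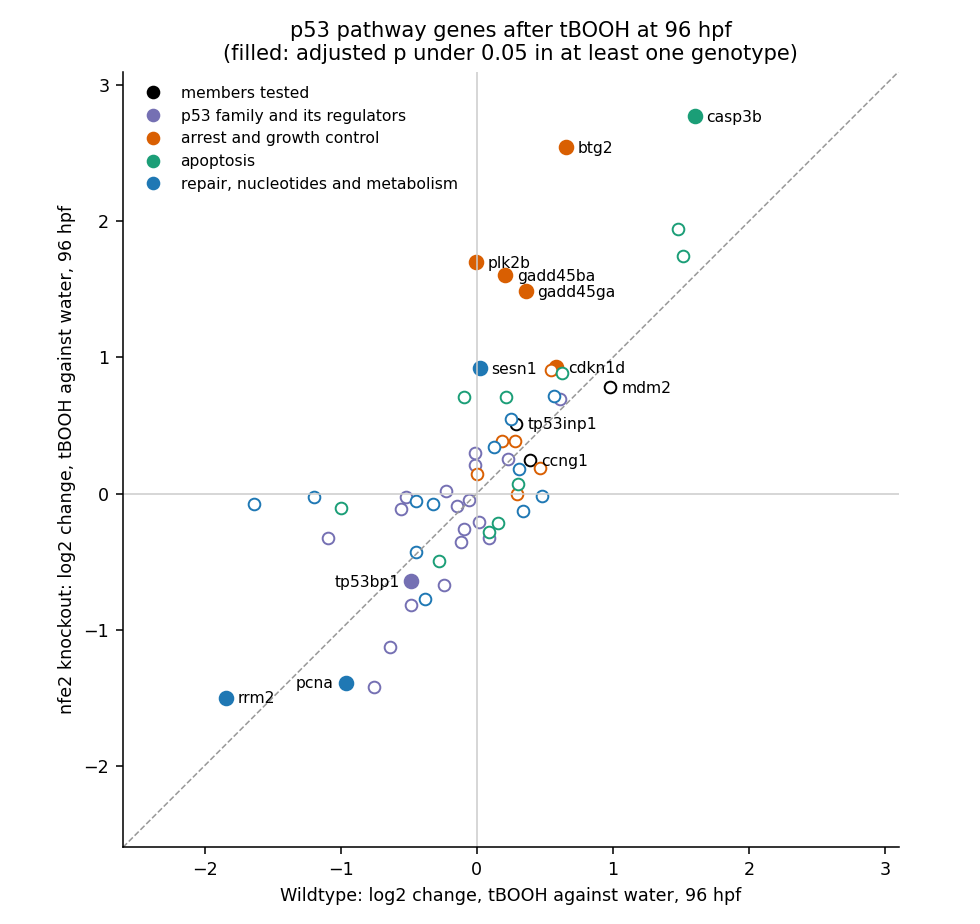
Log2 change with tBOOH against water at 96 hpf in the wildtype (horizontal axis) and the nfe2 knockout (vertical axis), 1 point per gene, for the 56 pathway genes and the 3 members tested; colours give the role, filled points were called in at least 1 genotype and the dashed line marks equal change. The points of casp3b (1.60 and 2.78) and btg2 (0.66 and 2.55) lie above the line, and mdm2 (0.98 and 0.78) lies below it.

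**Figure D4:**
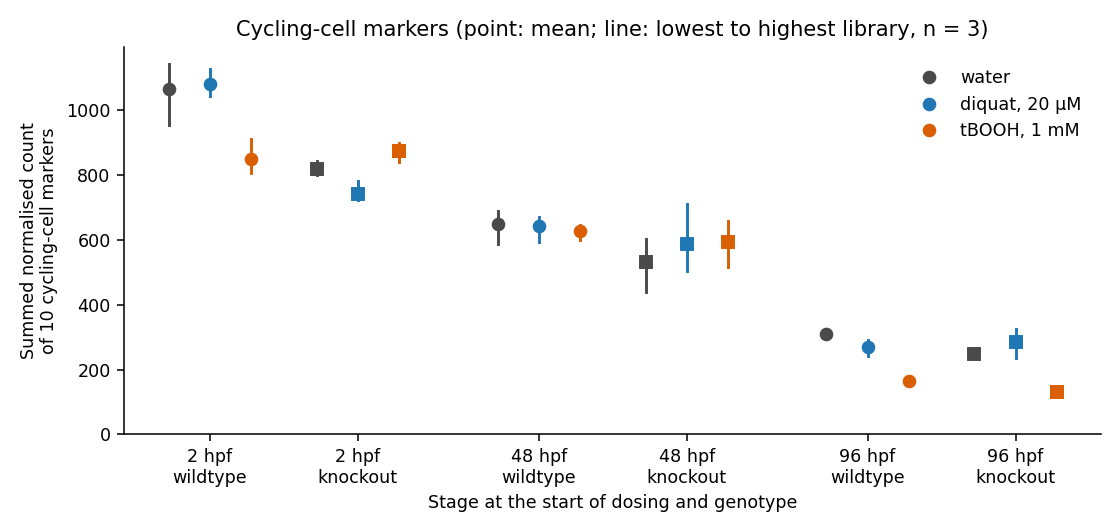
Summed normalised count of 10 cycling-cell marker genes (vertical axis from 0) by stage and genotype; points are group means and lines run from the lowest to the highest of 3 libraries, colours give the treatment. At 96 hpf the tBOOH groups, with means of 163 and 132, lie below the water groups, with means of 311 and 247.

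The gene mdm4, a relative of mdm2 whose product also restrains the pathway, rose in water from 2 to 48 hpf, by 0.79 ± 0.19 SE in the wildtype (adjusted p = 0.000502) and 0.65 ± 0.19 in the knockout (0.00388). Over this step 58.4% of all genes were called in the wildtype and 57.8% in the knockout. The median log2 changes of all genes were 0.39 and 0.41, so relative to the median gene mdm4 rose by less than these values. How much of the changes came from the scaling of the libraries was not tested.

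Between the genotypes in water, pathway genes were called in both directions. At 2 hpf 6 of 40 were higher and 3 lower in the knockout, 22.5% of the list against 31.3% of all genes. The apoptosome gene apaf1 had 4.84, 6.89 and 8.64 normalised counts in the wildtype and 35.5, 37.3 and 50.5 in the knockout (log2 difference 2.45 ± 0.28 SE, adjusted p = 2.6e-07). Of these libraries only those of the knockout, where apaf1 was high, reached the filter level of 10. The call of apaf1 held with no low-value filter, but with that limit it is a description only. The deubiquitinase gene usp7, whose product acts on Mdm2, was higher by 1.11 ± 0.22 SE (adjusted p = 0.000356), and tp53bp1 by 0.65 ± 0.16 (0.00288). The ribonucleotide reductase genes went apart, rrm2 (ENSDARG00000020711) higher by 1.22 ± 0.30 SE (adjusted p = 0.00257) and rrm2b at -1.02 ± 0.24 (0.00178). The cyclin G2 gene ccng2 was higher by 0.51 ± 0.17 SE (0.0207) and mdm4 by 0.65 ± 0.22 (0.0226). The call of ccng2 was lost without wildtype water replicate 1 (0.0612) or 2 (0.0852), without knockout water replicate 3 (0.132) and with no low-value filter (0.0531), and that of mdm4 without any of 4 libraries (up to 0.0806), with no low-value filter (0.063) and with DESeq2 (0.0639). The 2 others, gadd45ba and pcna, were lower at -1.16 and -0.43 and are named after their values were seen. Both calls were lost without several single libraries (adjusted p up to 0.149 and 0.153), that of gadd45ba also with DESeq2 (0.0559), and that of pcna also with no low-value filter (0.118), TMM (0.0508), DESeq2 (0.0507) and only the compared groups (0.0583).

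The later stages gave other pathway genes. At 48 hpf 1 of 48 was called, 2.08% of the list against 2.49% of all genes. It was the damage-signalling kinase gene atr, with 25.7, 26.4 and 30.3 normalised counts in the wildtype and 5.84, 7.9999 and 8.13 in the knockout (log2 difference -1.78 ± 0.40 SE, adjusted p = 0.02). That call was lost on leaving out any of 5 of its 6 libraries (adjusted p up to 0.105). Of these libraries only those of the wildtype, where atr was high, reached the filter level of 10. The call of atr held with no low-value filter, but with that limit it is a description only. At 96 hpf 3 of 56 were higher and 5 lower in the knockout, 14.3% of the list against 23% of all genes. They included casp3b at -1.78 ± 0.35 SE (adjusted p = 0.000385) and the apoptosis effector gene perp at -1.20 ± 0.24 (0.000467), whose wildtype libraries held 39.8, 40.7 and 47.3 and whose knockout libraries 15.4, 18.96 and 19.8. For casp3b only the wildtype water libraries, where it was high, reached the filter level of 10 in this comparison. That call of casp3b held with no low-value filter, but with that limit it is a description only. The glutaminase gene gls2a was lower, at -2.31 ± 0.50 SE (adjusted p = 0.00115), and the polo-like kinase gene plk2a higher, at 1.09 ± 0.30 (0.00806). Higher too were ccng2, at 0.70 ± 0.21 (0.0167), and tp53bp1, at 0.53 ± 0.17 (0.0231), calls that were each lost without single libraries (up to 0.0764 and 0.123). The 2 others, lower and named after their values were seen, were rrm2 (ENSDARG00000078069) at -1.26 and plk2b at -1.22, both lost without single libraries (up to 0.13 and 0.331). The call of that rrm2 was also lost with no low-value filter (0.0586) and with DESeq2 (0.0552), and that of plk2b with pseudocount 5 (0.0591), no low-value filter (0.0713), edgeR (0.0867), DESeq2 (0.162) and only the compared groups (0.0526).

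Cell type markers also differed between the genotypes in water. At 2 hpf 31.3% of all genes were called between the genotypes. Cycling-cell markers were lower in the knockout for 4 of 10 genes, near that share, with a median log2 difference of -0.33. Gastrula markers were lower for 2 of 5 genes tested, digestive organ markers for 1 of 2 and red blood cell markers for 1 of 1. Skeletal muscle markers were higher for 1 of 2. At 2 hpf the last 3 sets rest on 1 or 2 tested genes, and red blood cell sums were at most 28.7 normalised counts. Muscle sums were at most 85.9 there, against at least 5903 later. Calls of these 3 sets at 2 hpf are of single genes and do not measure those cells. At 48 hpf 2.49% of all genes were called. Red blood cell markers were lower for 4 of 5 (median -2.25), and their sums were 161 to 220 normalised counts in the wildtype and 26.4 to 82.9 in the knockout. At 96 hpf 23% of all genes were called. Digestive organ markers were lower for 8 of 9 (median -2.22), with sums of 660 to 807 in the wildtype and 100 to 149 in the knockout. Red blood cell markers were lower for 3 of 4 (median -2.08), with sums of 2049 to 2529 and 253 to 403. The part of the cell types present at each stage in the differences of apaf1, atr, casp3b, perp and the other genes was not tested.

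In the comparisons of an oxidant with water at 2 and 48 hpf, the pathway list gave calls in 1 of 8. In the knockout given diquat from 2 hpf, 3 of 40 genes rose, 7.5% of the list against 3.74% of all genes: the checkpoint kinase gene chek2 by 0.93 ± 0.25 SE (adjusted p = 0.0394), usp7 by 0.78 ± 0.22 (0.0443) and the epidermal transcription factor gene tp63 by 0.63 ± 0.18 (0.0472). Each of these calls was lost without any of 4 of the 6 libraries (adjusted p up to 0.238, 0.267 and 0.257), with no low-value filter (0.0753, 0.0834 and 0.114), with TMM (0.0639, 0.0709 and 0.0896) and when only the compared groups were fitted (0.0808, 0.109 and 0.133). The 291 calls over all genes in this comparison likewise numbered 8 with no low-value filter, 0 with TMM, 139 with edgeR and 0 with only the compared groups, 1 without knockout diquat replicate 3 and 0 without knockout water replicate 1 or 2. Under the other settings they numbered 312 to 689. In the wildtype given diquat from 2 hpf, where ccng1 rose, 0 of 40 genes were called by limma, and the list median was 0.00 beside -0.01 over all genes.

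The genes most like each member were sought by the correlation of the 18 group means, each stage centred on its own mean, among 6177 genes past the filter in all stages. These are descriptions over 18 groups that share libraries and depth. For mdm2 they were dnajb9b (Pearson r = 0.853), ubald1b (0.817) and upf3b (0.79), and for ccng1 sumf2 (0.745), rps3a (0.72) and rpl19 (0.718). For tp53inp1 they were cth (0.797), snd1 (0.753) and cd164 (0.748). The rare cdkn1a and gadd45aa were most like zbtb8os (0.844) and bop1 (0.797). Among themselves the 5 members reached r values from -0.154 (cdkn1a and mdm2) to 0.523 (ccng1 and gadd45aa).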

How the data were processed

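RNA of pooled embryos was made into directional poly(A) libraries and sequenced in pairs, per the labels' protocols. Reads were aligned to GRCz10 with TopHat2 2.0.14 and Bowtie2 2.2.5 and handled with HTSeq, SAMtools 0.1.19 and DESeq2 1.10.1, per the submitters' processing notes; the sources used here give neither the HTSeq version nor its strand setting. The deposited signal values are counts per gene divided by 1 size factor per library by the authors, per the series' design text. Whole reads were recovered in 51 of the 54 columns to within 0.01, and in the other 3 a step near 1 decides little. The size factors spanned 0.571 to 1.42. Recovered depth had a median of 0.772 M reads per library, 3.09% of the 25 M reads the study states, so counting error is large for rare genes. The antisense-encoded mt-nd6 exceeded the median of the other mitochondrial mRNAs in 54 of 54 libraries. It was the highest of the 13 mitochondrial mRNAs in 44 libraries. Which strand the reads were counted on was not tested, so the values may not all be levels of sense mRNA. This is a limit for every gene, including those with antisense neighbours. No member overlaps another RefSeq gene in GRCz12tu.

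From these values limma 3.58.1 (R 4.3.3) was fitted to log2(value + 1) with a trended prior, per stage over 18 libraries, and over 54 for steps between stages and their differences, with Benjamini-Hochberg adjustment over all genes with at least 10 in at least 3 libraries. Fold changes on this scale understate those of low genes. The fit was tested on simulated data. Other settings tried were no low-value filter, a pseudocount of 5, a replicate block, TMM rescaling, library quality weights, edgeR 4.0.16 and DESeq2 1.42.0 on recovered reads, only the compared groups, and leaving out each library. The pathway lists were matched by gene name, 87 of 93 names. Named are the members in every comparison, up to 6 called pathway genes per comparison of oxidant against water or knockout against wildtype by smallest p, and mdm4; 1 other gene of that rule is not reported here. Members and lists were chosen with earlier results of these data known. No sequence or coordinate is used, since the reference at hand, GRCz12tu, is not the build of the counts.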

Additional observations from a re-analysis of the deposited data

Results flagged for a closer look

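The diquat response of ccng1, the cyclin G1 gene, at 2 hpf differed between the genotypes by a test of the difference itself. The log2 change was 0.75 in the wildtype and -0.30 in the knockout, a difference of -1.04 (± 0.25 SE, adjusted p = 0.035 by limma), and it was lost on leaving out any 1 of 7 of the 12 libraries. No cause was tested.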

How the results depend on the processing

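No called value changed sign under any alternative, and 57 values that were not called changed sign or came to 0. Counts of members called are given here as the number under the alternative. With no low-value filter, 0 members were called for wildtype diquat, its genotype difference and tBOOH against diquat in the wildtype at 2 hpf (1 each in the report), and 1, cdkn1a, from 48 to 96 hpf in the wildtype (0 in the report). That count was also 1, ccng1, with pseudocount 5, TMM, library quality weights, edgeR, DESeq2 and only the compared groups. With library quality weights the counts at 48 hpf were 1 for knockout tBOOH, 2 for knockout against wildtype in water and 1 for the genotype difference under tBOOH; at 96 hpf they were 1 for wildtype tBOOH, 1 for tBOOH against diquat in the wildtype and 0 in the knockout; the stage difference of wildtype diquat gave 1. With edgeR, wildtype tBOOH at 96 hpf gave 1, and with DESeq2 tBOOH against diquat in the knockout gave 0. With TMM or edgeR the knockout step from 2 to 48 hpf gave 1. With only the compared groups, the counts were 1 for wildtype tBOOH at 96 hpf, 1 and 0 for tBOOH against diquat in wildtype and knockout, 1 for the wildtype and 0 for the knockout step from 2 to 48 hpf, and 1 for the stage difference of wildtype diquat; tp53inp1 was not tested in those steps. Leaving out each library gave 0 to 1 for the 3 comparisons of 2 hpf with a call and for tBOOH against diquat in the knockout at 96 hpf, and 1 to 2 for the knockout step. For single genes, 1547 values kept direction and side of the threshold, 119 lost a call and 17 gained one.

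Replicate numbers paired the libraries weakly at most. Deviations of same-numbered libraries correlated on average by 0.0377 at 2 hpf, -0.00964 at 48 hpf and -0.000254 at 96 hpf. Those of other-numbered libraries correlated by -0.0189, 0.00486 and 0.000309. In these series 11, 4 and 8 of 18 libraries correlated best with their own number, so some pairing may be present at 2 hpf. With the replicate block the wildtype diquat count at 2 hpf was 1 and that of the wildtype step from 2 to 48 hpf 2, and no member's call changed. From 48 to 96 hpf in wildtype water, 2607 of 3703 called genes were higher, and 1936 of 3515 with TMM. Depth limits cdkn1a and gadd45aa most, with at most 32 reads per group.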
